A study of Mus musculus with 2 samples.

Results

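The axon guidance ligands and their receptors are described here in stromal cells of the mouse intestine. The members were all genes of the deposited feature list whose symbols belong to the semaphorins of classes 3 to 7, the plexins, Slit1 to Slit3, Robo1 to Robo4, the netrins and Unc5a to Unc5d. This gave 43 of 31053 genes, of which 26 were ligands (20 semaphorins, 3 Slits and 3 netrins) and 17 were receptors (9 plexins, 4 Robo genes and 4 Unc5 genes). No measured value entered the choice.

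The samples were 2 single-cell libraries of lamina propria cells from C57BL/6 mice killed at 11 weeks of age, sorted by flow cytometry as negative for DAPI, Ter119, EpCAM and CD45, with 1 library per genotype. Both carried ApcMin/+, a germline truncating allele of the tumor suppressor Apc that gives rise to intestinal adenomas. The ApcMin library came from mice with Lef1 +/+, and the VApcMinL library from mice with Lef1 fl/fl and Villin-Cre, a Cre transgene active in the intestinal epithelium, so that the Wnt effector Lef1 is deleted in epithelial cells and not by this Cre in the stromal cells measured. The study asked whether epithelial Lef1 affects the tumor microenvironment, and how many mice were pooled per library is not stated in the sources used here.

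Guidance ligands steer cells and vessels as well as axons. Secreted class 3 semaphorins act through complexes of a plexin with a neuropilin, while the membrane-bound semaphorins of classes 4 to 7 mostly bind plexins directly. Slits bind Robo receptors, and netrins bind the Unc5 family, Dcc and neogenin, with repulsion or attraction depending on the receptor.

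The ApcMin library held 93203061 UMIs and gave 7593 cells (median 9663 UMIs), and the VApcMinL library held 101609269 UMIs and gave 8597 cells (median 6792 UMIs), with 24 barcodes occurring in both. A UMI is a unique molecular identifier, counted once per captured RNA molecule, and cells were barcodes with at least 1000 UMIs and at most 20% mitochondrial UMIs. Clustering without the 43 members gave 18 clusters, and clusters were named from marker lists. Fibroblast-like cells numbered 3488 in ApcMin and 3990 in VApcMinL, blood endothelial-like cells 159 and 732, lymphatic endothelial-like cells 40 and 229, and glial-like cells 38 and 243. The markers of each of these classes summed higher in it than in the other 3 in both libraries. Despite the sort, B, plasma, myeloid, erythroid, epithelial and T cell or ILC-like cells were present. Another 1 cluster with smooth muscle, pericyte and fibroblast genes (cluster 11, led by Myh11, Actg2 and Tagln, 82 and 244 cells) could not be given a single name.

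Levels are given as CPM, the UMIs of a gene divided by all UMIs and scaled to 1e6, summed over all cells of a class in a library. In cluster 11 the fibroblast markers summed to 25440 CPM in ApcMin and 32220 CPM in VApcMinL, against 39610 and 35890 CPM in fibroblast-like cells. Its smooth muscle markers summed to 4582 and 3773 CPM and its pericyte markers to 3648 and 2051 CPM, so its levels are not those of mural cells alone. Intervals are exact 95% Poisson intervals for a level and exact conditional intervals for a ratio, and neither covers more than counting error. Because each genotype had 1 library, nothing could be tested, and genotype cannot be told apart from the mice or the preparation. Of the 43 members, 36 had at least 100 UMIs over the 11 classes with at least 30 cells in each library, and these are described. The other 7 were Slit1, Ntn5, Sema4f, Sema5b, Robo3, Unc5d and Plxnb3, with between 3 and 95 UMIs.

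**Figure D1:**
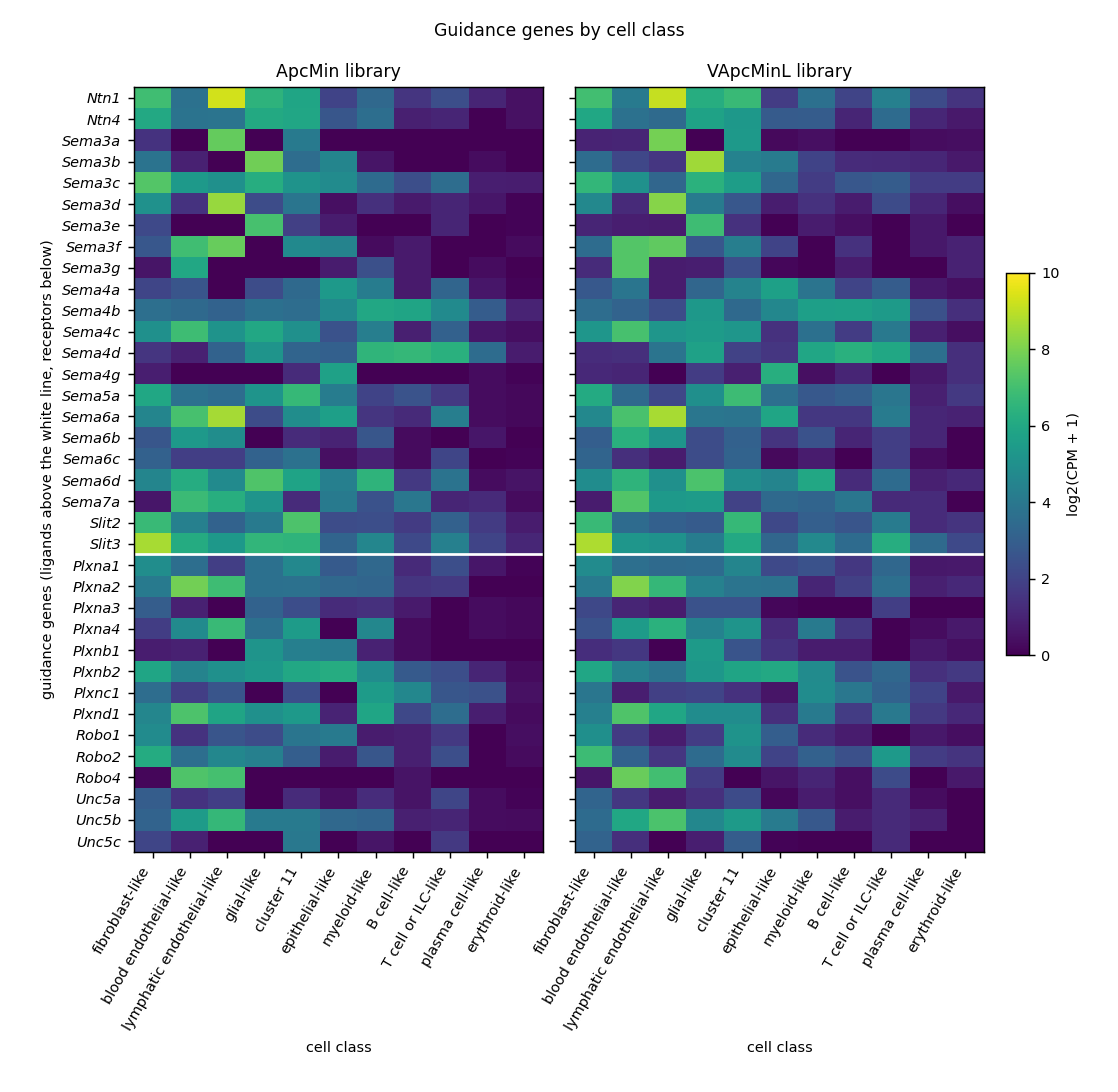
Heat map of log2(CPM + 1) for the 36 described guidance genes (rows, 22 ligands above the white line and 14 receptors below it) in the 11 cell classes (columns) of the ApcMin library (left) and the VApcMinL library (right). In both libraries the brightest cell of Slit3 falls in the fibroblast-like column. Those of Ntn1, Sema3a, Sema3d and Sema6a fall in the lymphatic endothelial-like column and that of Plxna2 in the blood endothelial-like column. Robo4 is bright in both endothelial columns, and Sema3b and Sema3e are brightest in the glial-like column.

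Before the values, the bases ahead of the transcription start are shown for 4 members that were nearly confined to 1 or 2 of these classes, so that their starts can be set beside the levels. Robo4 and Sema3g were endothelial, and Sema3e and Plxnb3 glial. Sequences are from the 250 bases before the RefSeq start in GRCm38.p6, from 5′ to 3′ on the gene's strand. The GENCODE vM21 start of 3 genes lies before the RefSeq start, and the bases from it onwards were left out (75 for Robo4, 13 for Sema3g and 13 for Plxnb3), so that the printed bases lie before both starts. Capitals mark AGGAAG (a core bound by ETS factors) or ACAAAG (a core bound by SOX factors) on either strand.
Robo4, chr9:37401722-37401896 (+ strand): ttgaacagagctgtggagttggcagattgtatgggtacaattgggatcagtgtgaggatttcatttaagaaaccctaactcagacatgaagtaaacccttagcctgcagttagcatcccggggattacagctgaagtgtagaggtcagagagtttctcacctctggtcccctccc
Sema3g, chr14:31217623-31217859 (+ strand): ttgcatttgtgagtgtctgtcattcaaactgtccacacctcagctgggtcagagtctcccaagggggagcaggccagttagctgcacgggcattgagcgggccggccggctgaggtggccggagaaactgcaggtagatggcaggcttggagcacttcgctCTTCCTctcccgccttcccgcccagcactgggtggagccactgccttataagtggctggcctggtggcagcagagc
Sema3e, chr5:14025026-14025275 (+ strand): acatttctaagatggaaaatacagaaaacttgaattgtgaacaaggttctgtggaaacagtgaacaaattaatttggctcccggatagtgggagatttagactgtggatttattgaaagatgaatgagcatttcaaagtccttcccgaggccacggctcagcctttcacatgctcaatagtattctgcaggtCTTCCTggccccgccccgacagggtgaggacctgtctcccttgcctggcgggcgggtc
Plxnb3, chrX:73756853-73757089 (+ strand): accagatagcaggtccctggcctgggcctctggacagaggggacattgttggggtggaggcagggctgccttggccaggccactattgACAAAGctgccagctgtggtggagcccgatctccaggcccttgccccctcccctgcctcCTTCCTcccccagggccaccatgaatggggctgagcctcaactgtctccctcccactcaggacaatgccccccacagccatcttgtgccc
RefSeq promoter entries matched 35 of the 43 members, with 48 starts in all. AGGAAG or its complement occurred in 18 of these 48 (37.5%) and in 29.5% of all 32851 promoters of the table. ACAAAG occurred in 5 of the 48 (10.4%) and in 16.5% of all promoters. Each of the 4 genes shown held 1 match to the ETS core in its 250 bases, that of Robo4 within the 75 bases left out, and Plxnb3 also held 1 match to the SOX core, so the ETS core did not separate the endothelial from the glial genes among these 4. A match is a description of these letters and not a bound site.

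Among the ligands, Slit3, a secreted ligand of Robo receptors, was the fibroblast gene of the set (chr11:35121224-35708507, + strand, GRCm38). Its level in fibroblast-like cells was 409 CPM (403 to 415) in ApcMin and 439 CPM (433 to 446) in VApcMinL. In blood endothelial-like cells it was 70.0 and 36.7 CPM, and in lymphatic endothelial-like cells 39.8 and 33.1 CPM. Fibroblast-like cells with at least 1 Slit3 UMI made up 90.3% and 82.8% of the class, or 31.9% and 33.7% after thinning each cell to 1000 UMIs, against 17.0% and 9.29% of blood endothelial-like cells (3.77% and 2.05% after thinning). The median depths were 13146 and 9928 UMIs for fibroblast-like cells and 5223 and 3947 UMIs for blood endothelial-like cells.

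Slit2, the other abundantly counted Slit, lay at 108 CPM in fibroblast-like cells of both libraries. It was also high in cluster 11, at 145 CPM in ApcMin and 103 CPM in VApcMinL, so its highest class differed between the libraries. Slit1 had 7 UMIs in all.

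Ntn1, the founding netrin, had its highest level in lymphatic endothelial-like cells, at 636 CPM (558 to 722) in ApcMin and 560 CPM (523 to 600) in VApcMinL. That was 5.27 times (4.61 to 6.00) and 4.45 times (4.13 to 4.79) its level in fibroblast-like cells of the same library (121 and 126 CPM). The 2 endothelial classes stood far apart, since blood endothelial-like cells had 12.2 and 16.3 CPM, and the ratio of lymphatic to blood endothelial-like levels was 52.0 (30.4 to 96.5) in ApcMin and 34.4 (26.6 to 45.2) in VApcMinL. Ntn4, a basement membrane netrin, lay at 64.4 and 62.0 CPM in fibroblast-like cells and at 67.1 and 53.2 CPM in glial-like cells, and these 2 classes did not differ beyond counting error. Ntn5 had 3 UMIs in all.

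The class 3 semaphorins, which are secreted, divided among the stromal classes. Sema3a and Sema3d were highest in lymphatic endothelial-like cells. Sema3a, a ligand of Nrp1 and class A plexins, had 196 CPM (154 to 246) there in ApcMin and 240 CPM (216 to 267) in VApcMinL, against 1.78 and 1.0 CPM in fibroblast-like cells and 0 and 4 UMIs in blood endothelial-like cells. Sema3d had 350.0 CPM (293 to 415) there in ApcMin and 293 CPM (266 to 322) in VApcMinL, and 31.9 and 24.4 CPM in fibroblast-like cells. Sema3f, which binds Nrp2, was found in both endothelial classes, at 202 and 187 CPM in lymphatic and 120 and 159 CPM in blood endothelial-like cells. The intervals of these 2 classes were apart in ApcMin and overlapped in VApcMinL.

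Sema3g was the blood endothelial member of the class (chr14:31217860-31230352, + strand, GRCm38). It had 62.1 CPM (48.5 to 78.3) in ApcMin and 159 CPM (146 to 172) in VApcMinL among blood endothelial-like cells, against 0 UMIs and 1 UMI in lymphatic endothelial-like cells. Its promoter is among those shown above.

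Sema3b and Sema3e were the glial members. Sema3b (chr9:107597674-107609229, - strand, GRCm38) had 225 CPM (170 to 291) in ApcMin and 382 CPM (349 to 418) in VApcMinL in glial-like cells, and 12.8 and 10.5 CPM in fibroblast-like cells. Sema3e, the ligand of Plxnd1 that acts without a neuropilin, had 134 CPM (92.9 to 187) and 119 CPM (101 to 140) in glial-like cells. The glial-like level of Sema3e was 36.9 times that of the next class in ApcMin (fibroblast-like cells) and 70.3 times that of the next class in VApcMinL (cluster 11). Sema3c was highest in fibroblast-like cells, at 158 CPM (154 to 161) in ApcMin and 98.3 CPM (95.2 to 101) in VApcMinL, with 75.0 and 83.4 CPM in glial-like cells. In VApcMinL the fibroblast-like and glial-like intervals of Sema3c overlapped.

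The membrane-bound semaphorins were highest in several classes, stromal and others. Sema6a, a ligand of class A plexins, had 398 and 414 CPM in lymphatic endothelial-like cells, 136 and 140 CPM in blood endothelial-like cells, 49.7 and 58.2 CPM in epithelial-like cells and 22.8 and 24.5 CPM in fibroblast-like cells. Sema7a, a GPI-anchored ligand of Plxnc1 and integrins, had 112 and 155 CPM in blood endothelial-like cells and 0.510 and 0.683 CPM in fibroblast-like cells. Sema4c had 118 and 136 CPM in blood endothelial-like cells, and Sema6b 40.2 and 79.7 CPM. The next class was glial-like for Sema4c (63.1 and 44.5 CPM) and lymphatic endothelial-like for Sema6b (29.2 and 35.8 CPM). For Sema7a it was lymphatic endothelial-like in ApcMin (76.9 CPM) and glial-like in VApcMinL (43.7 CPM). For Sema4c, Sema6b and Sema7a, the intervals of the highest and next class overlapped in ApcMin and were apart in VApcMinL. Sema6d had 150 and 144 CPM in glial-like, 72.6 and 88.7 CPM in blood endothelial-like and 89.8 and 62.3 CPM in myeloid-like cells. The myeloid-like class of the libraries differed in other markers, since 6 mast cell markers summed to 14490 CPM in ApcMin (none at 0) and 38.0 CPM in VApcMinL (2 of them at 0), with median depths of 8528 and 2118 UMIs. Their part in the myeloid-like levels of the members was not tested.

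Sema4d, the immune semaphorin that binds Plxnb1 and Cd72, was the member highest in B cell-like cells, at 100.1 CPM in ApcMin and 80.2 CPM in VApcMinL. Its next class had an overlapping interval in each library, the myeloid-like cells in ApcMin (92.3 CPM) and the T cell or ILC-like cells in VApcMinL (61.9 CPM). Sema4b likewise had 56.8 and 50.9 CPM in B cell-like and 62.2 and 49.6 CPM in myeloid-like cells. Sema4g and Sema4a were highest in the epithelial-like cells left in the sort, at 51.4 and 77.2 CPM for Sema4g and 39.9 and 50.1 CPM for Sema4a. The next class of Sema4g had only 1.37 CPM in ApcMin (cluster 11) and 2.38 CPM in VApcMinL (glial-like cells). Sema5a was highest in cluster 11, at 103 and 116 CPM, with 60.7 and 68.0 CPM in fibroblast-like cells. Sema6c was at or under 12.3 CPM in every compared class.

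Among the receptors, Robo4, an endothelial Robo, was nearly confined to the 2 endothelial classes (chr9:37401897-37415115, + strand, GRCm38). It had 151 CPM (130 to 176) in ApcMin and 212 CPM (198 to 227) in VApcMinL in blood endothelial-like cells, while its lymphatic levels were 130 CPM (96.1 to 172) and 126 CPM (109 to 146). The 2 classes did not differ beyond counting error in ApcMin and stood apart in VApcMinL, where the lymphatic level was 0.596 times (0.506 to 0.699) the blood endothelial one. Fibroblast-like cells had 6 and 21 UMIs, or 0.128 and 0.513 CPM. Blood endothelial-like cells with a Robo4 UMI made up 59.1% and 57.8% of the class (13.8% and 21.7% after thinning) and such cells made up 0.143% and 0.426% of the more deeply sequenced fibroblast-like cells (0 and 0.0501% after thinning).

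Robo2 and Robo1, receptors of the Slits, were found in fibroblast-like cells, as were Slit2 and Slit3. Whether single fibroblast-like cells held both a Slit and a Robo gene was not examined. Robo2 (chr16:73891839-74411825, - strand, GRCm38) had 70.3 CPM (68.0 to 72.8) in ApcMin and 114 CPM (111 to 118) in VApcMinL there, and 11.4 and 7.76 CPM in blood endothelial-like cells. Robo1 had 27.5 and 30.8 CPM in fibroblast-like cells, and was at or under 2.33 CPM in blood endothelial-like cells. Its highest class in VApcMinL was cluster 11 (33.9 CPM), with an interval overlapping that of fibroblast-like cells. Robo3 had 12 UMIs in all.

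Of the class A plexins, which transduce class 3 and class 6 signals, Plxna2 was highest in blood endothelial-like cells, at 234 CPM (207 to 264) in ApcMin and 274 CPM (258 to 291) in VApcMinL. That was 14.5 times (12.6 to 16.7) and 16.7 times (15.2 to 18.4) the fibroblast-like level. Plxna4 was highest in lymphatic endothelial-like cells (109 and 82.3 CPM) and also lay at 43.8 and 35.6 CPM in cluster 11 and 26.2 and 43.7 CPM in blood endothelial-like cells. Plxna1 was low and broad, with 28.9 and 27.6 CPM in fibroblast-like cells and 24.6 and 22.5 CPM in cluster 11. Plxna3 was at or under 7.89 CPM in every compared class.

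Plxnd1, the endothelial receptor of Sema3e, had blood endothelial-like levels of 149 CPM (127 to 173) and 153 CPM (140.5 to 165), 6.51 times (5.51 to 7.66) and 7.83 times (7.03 to 8.72) its fibroblast-like level. Its ligand Sema3e had 0 and 3 UMIs in those cells and was glial. Plxnb1, a receptor of Sema4d, had 35.5 and 42.1 CPM in glial-like cells. Plxnb3 showed the same class but had 95 UMIs in all, of which 9 and 64 were in glial-like cells (35.5 and 50.9 CPM), with its other classes at or under 2.40 CPM. Plxnb2 was the broad plexin of class B, between 13.5 and 72.6 CPM in the fibroblast-like, endothelial, glial-like, myeloid-like and epithelial-like classes and cluster 11. Plxnc1, the receptor of Sema7a, was highest in myeloid-like cells (43.8 and 28.1 CPM) and was 0 and 3.18 CPM in glial-like cells.

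The netrin receptor Unc5b, known from endothelial tip cells, followed the endothelial classes. Its lymphatic levels were 101 CPM (71.3 to 138) in ApcMin and 141 CPM (123 to 162) in VApcMinL, and its blood endothelial levels 43.7 CPM (32.5 to 57.7) and 60.8 CPM (53.2 to 69.1). The lymphatic level was 2.30 times (1.47 to 3.58) the blood endothelial level in ApcMin and 2.32 times (1.92 to 2.81) in VApcMinL. Thus Ntn1 and Unc5b were both highest in lymphatic endothelial-like cells. Unc5a was low and highest in fibroblast-like cells, at 6.78 and 8.45 CPM, and Unc5d had 7 UMIs in all.

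**Figure D2:**
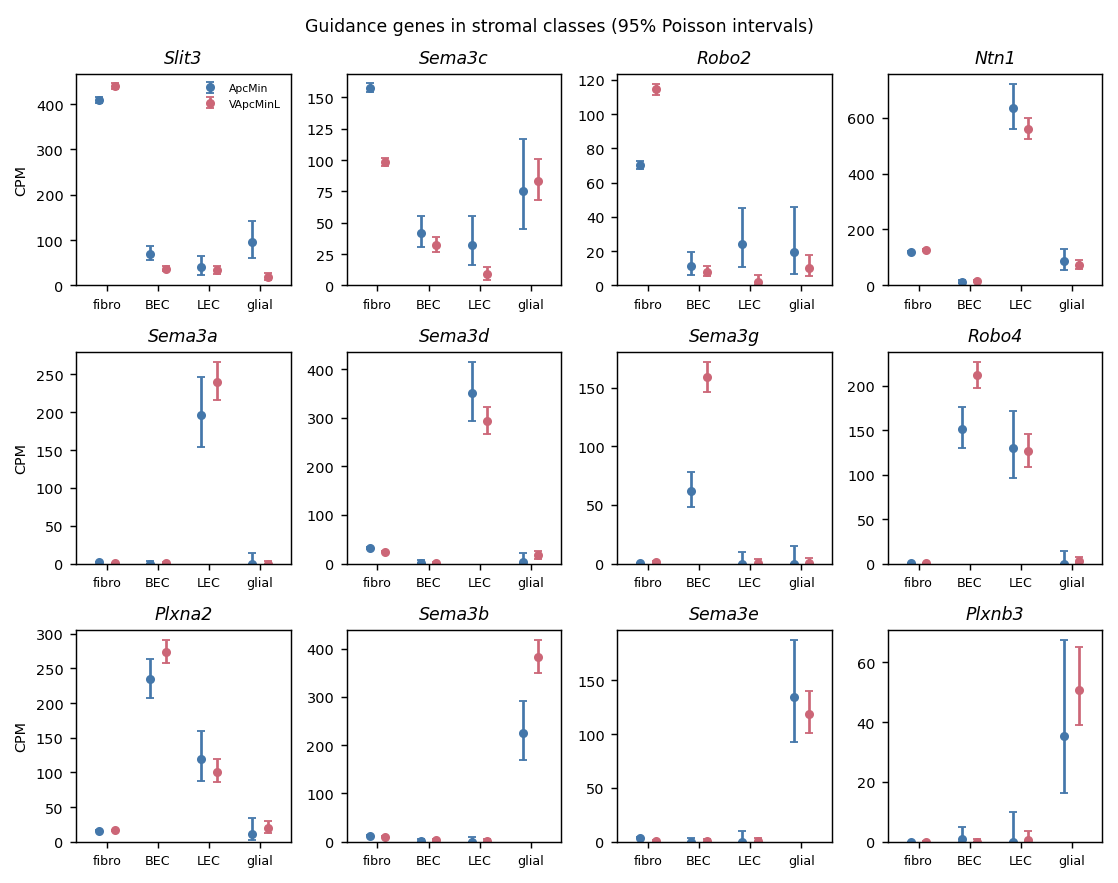
Levels in CPM (vertical axes, linear from 0) of 12 guidance genes in fibroblast-like (fibro), blood endothelial-like (BEC), lymphatic endothelial-like (LEC) and glial-like cells. Points are library values, blue for ApcMin and red for VApcMinL, and bars are 95% Poisson intervals. Ntn1, Sema3a and Sema3d stand highest in LEC, Sema3g, Robo4 and Plxna2 in BEC, and Sema3b, Sema3e and Plxnb3 in glial-like cells.

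Counted over the 36 described members, 7 had their highest level in blood endothelial-like cells in both libraries (4 ligands and 3 receptors), against 5.71% of all 14926 genes with as many UMIs. Another 7 were highest in lymphatic endothelial-like cells (5 ligands and 2 receptors), against 8.38% of all genes. The glial-like class was highest for 5 members (3 ligands and 2 receptors), against 7.81% of all genes, and the fibroblast-like class for 5 (2 ligands and 3 receptors), against 4.68%. These counts are a description, since cell classes differ in depth and in how many genes they hold highest. For 6 members (Ntn4, Robo1, Sema4b, Sema6c, Slit2 and Unc5c) the highest class differed between the libraries (16.7% of the members, against 40.0% of all genes). For Plxna1, Plxna3, Plxnb2 and Sema4d the highest and next class had overlapping intervals in both libraries. They overlapped in ApcMin alone for Plxnb1, Robo4, Sema4c, Sema6b, Sema7a and Unc5a, and in VApcMinL alone for Sema3c and Sema3f.

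The fibroblast-like class was made of 5 clusters, and the members varied among them. Cluster 0 was led by Pi16, Has1 and Mfap5, cluster 1 by Adamdec1, Ereg and Col6a5, cluster 2 by Lpl, Penk and Cxcl14, cluster 5 by Grem1, Stc2 and Cxcl13, and cluster 12 by Scg2, Thbs2 and Fibin. Cluster 12 also held pericyte markers, at 3948 CPM in ApcMin and 3172 CPM in VApcMinL, and neuronal markers, at 185 and 971 CPM. Its fibroblast markers summed to 26190 and 22080 CPM. The part of such cells in its levels was not tested. Of 31 members with at least 100 UMIs in the class, 9 were highest in cluster 1 in both libraries (Plxna1, Plxna2, Plxna4, Plxnc1, Robo1, Sema3f, Sema4c, Unc5b and Unc5c), or 29.0% against 18.0% of all 12991 genes with as many UMIs. Plxna2, Plxna4 and Unc5c overlapped with the next cluster in both libraries. Cluster 12 was highest for 7 (Plxnb2, Robo2, Sema3a, Sema4d, Sema5a, Sema6a and Unc5a), or 22.6% against 25.2% of all genes. Of these, Robo2 and Sema5a stood apart from the next cluster in both libraries, Sema4d and Sema6a in VApcMinL, and Plxnb2, Sema3a and Unc5a in neither. Another 10 members (32.3%, against 36.5% of all genes) had a different highest cluster in each library.

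Robo2, a Slit receptor, varied widely among them. It had 270 CPM and 268 CPM in cluster 12, 222 and 235 CPM in cluster 1, 50.4 and 77.4 CPM in cluster 2, 61.3 and 75.5 CPM in cluster 5, and 8.31 and 17.2 CPM in cluster 0. Slit3, its ligand, was lowest where Robo2 was highest, at 133 and 169 CPM in cluster 12, and lay between 322 and 575 CPM in the other 4 clusters. Slit2 did not share that order, with 53.6 and 48.9 CPM in cluster 1 and between 102.5 and 166 CPM in the others.

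Between clusters 0 and 12, Sema3c went the other way from Robo2, at 253 and 140 CPM in cluster 0 against 7.50 and 7.84 CPM in cluster 12. Cluster 5 was next for Sema3c, at 147 and 135 CPM, and its interval overlapped that of cluster 0 in VApcMinL. Sema5a, a transmembrane semaphorin with thrombospondin repeats, had 310 and 200 CPM in cluster 12 and 31.0 and 39.7 CPM in cluster 0. Sema3f was nearly confined to cluster 1, at 29.0 and 28.9 CPM against at most 7.84 CPM in any other fibroblast-like cluster. Ntn4 had 105 and 121 CPM in cluster 5 and 89.8 and 87.4 CPM in cluster 0, and 7.06 and 14.5 CPM in cluster 12. Ntn1 was highest in clusters 1 and 5, at 197 and 158 CPM and at 193 and 174 CPM. In cluster 1, Unc5c had 12.3 and 20.9 CPM, Plxnc1 27.1 and 29.8 CPM, and Robo1 53.0 and 48.6 CPM.

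**Figure D3:**
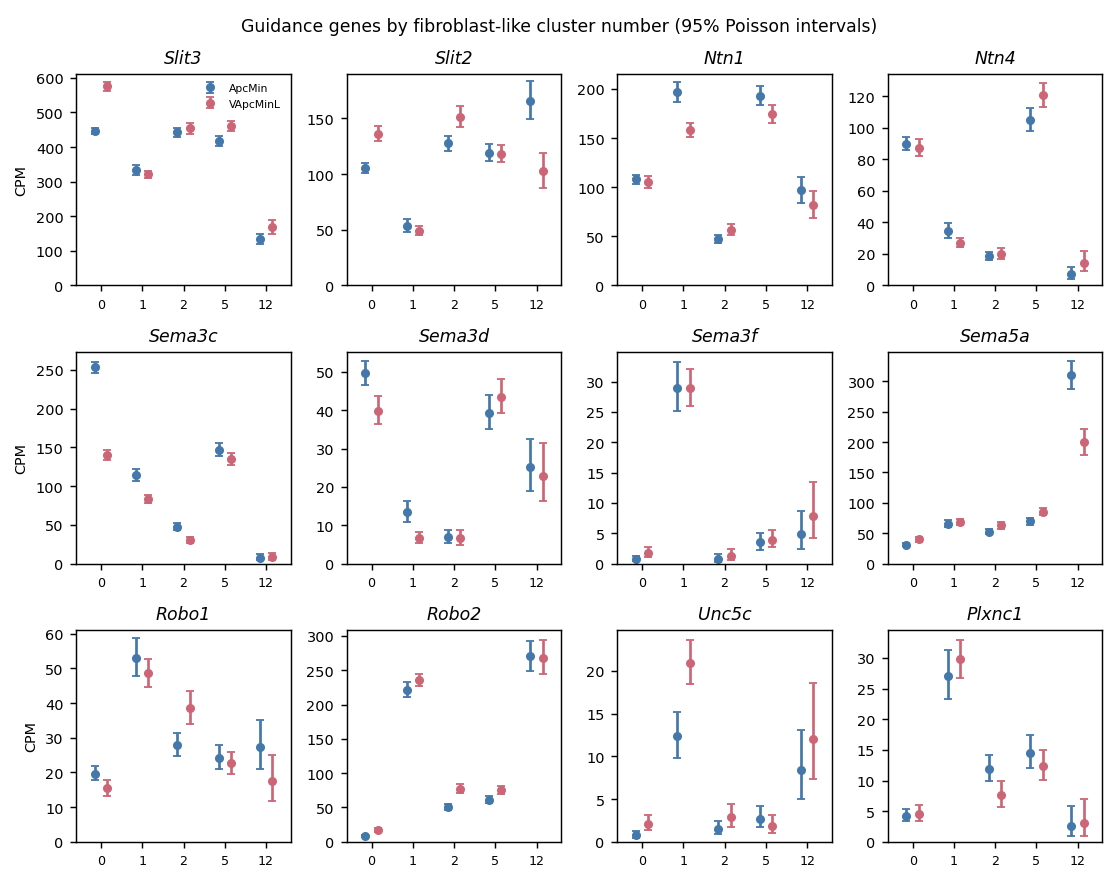
Levels in CPM (vertical axes, linear from 0) of 12 guidance genes in the 5 fibroblast-like clusters (0, 1, 2, 5 and 12 on the horizontal axes). Points are library values, blue for ApcMin and red for VApcMinL, with 95% Poisson intervals. Robo2 is high in clusters 1 and 12 and low in cluster 0, Sema3c is high in clusters 0 and 5 and low in cluster 12, and Sema3f rests on cluster 1.

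Within blood endothelial-like cells, some members lay in different vessel genes' company. Cells with a Sema3g UMI (37 in ApcMin and 200 in VApcMinL) had a summed level of 7 arterial genes (Gja4, Gja5, Hey1, Sox17, Efnb2, Dll4 and Bmx) of 1129 and 1411 CPM, against 503 and 623 CPM in the cells without one. Median depths were alike, at 5321 and 4176 UMIs with and 5082 and 3833 UMIs without. Plxna4 went with 5 venous genes (Ackr1, Selp, Nr2f2, Vwf and Ephb4), at 692 and 770 CPM in the 19 and 122 cells with a Plxna4 UMI and 167 and 292 CPM in those without. The cells with a Plxna4 UMI were deeper, with medians of 8040 and 4450.5 UMIs against 5139 and 3796, and their arterial genes summed to 897 and 912 CPM against 636 and 857 CPM. Cells with an Unc5b UMI also had more arterial counts (898 and 1200.0 CPM, against 583 and 737 CPM without), and those with a Sema6a UMI more venous counts (331 and 474 CPM, against 132 and 307 CPM). Median depths were again higher with a UMI than without, at 6523 and 4376 against 4990.5 and 3762.5 UMIs for Unc5b and 5577 and 4921.5 against 4699 and 3422.5 UMIs for Sema6a, and the part of depth was not tested. For Robo4 the arterial genes went in opposite directions in the libraries, at 690 and 809 CPM with and 640 and 983 CPM without. Cells with a Sema7a UMI had more arterial counts (810 and 983 CPM, against 531 and 735 CPM). Cells with a Plxna2 UMI had fewer (614 and 817 CPM, against 813 and 1002 CPM). Those with a Sema6b UMI differed less (652 and 800 CPM, against 677 and 917 CPM). Cells with a UMI were deeper for these genes too, with medians of 5465 and 4426 against 4796 and 3527 UMIs for Sema7a. The medians were 5845 and 4475 against 4216 and 3054 UMIs for Plxna2, and 7253 and 5098 against 4777 and 3515 UMIs for Sema6b. The part of depth was not tested for them either. Sema3f, Sema4c, Sema6d and Plxnd1 were compared too, as was a list of 5 capillary genes, and their values are not given. These lists were written after first results were seen, and cells of 1 library are not replicates.

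The library comparison asks whether guidance genes in the stroma differed with epithelial Lef1. A member was called apart where it had at least 50 UMIs in a class, its CPM differed at least 2-fold between the libraries and the interval of the ratio left out 1. In blood endothelial-like cells 2 of 21 members with enough UMIs were apart, against 5.6% of all 8447 such genes, and both were higher in VApcMinL. Sema3g was 2.56 times higher (2.0 to 3.32), and Sema4a was 2.61 times higher (1.12 to 7.43) on 6 and 53 UMIs. The 10 blood endothelial-like cells with the most Sema3g UMIs held 57.7% of them in ApcMin and 30.9% in VApcMinL. The arterial genes summed to 670 CPM in ApcMin and 869 CPM in VApcMinL over the class, and their part in the Sema3g difference was not tested. Sema6b was just under the fold, at 1.98 (1.45 to 2.76), and Robo4 was at 1.40 (1.19 to 1.66). Plxnd1 and Sema6a differed by less than counting error.

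In lymphatic endothelial-like cells 0 of 15 members were apart, against 5.82% of all genes. Ratios ran from 0.535 for Sema7a (0.339 to 0.864) to 1.40 for Unc5b, and Ntn1 was at 0.880 (0.762 to 1.02). In glial-like cells 1 of 13 was apart, against 5.62% of all genes. This was Sema4b, at 11.8 CPM in ApcMin and 38.9 CPM in VApcMinL, a ratio of 3.29 (1.06 to 16.5) that rests on 3 UMIs in ApcMin. Sema3b was at 1.70 (1.29 to 2.28) and Sema3e at 0.888 (0.609 to 1.33).

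In fibroblast-like cells 3 of 35 members were apart, against 6.94% of all genes. Sema3e was lower in VApcMinL, at 0.289 times (0.202 to 0.406) the ApcMin level, from 3.63 to 1.05 CPM. Unc5c was 2.47 times higher (2.04 to 3.01) at 3.31 and 8.20 CPM, and Sema3g 2.80 times higher (1.69 to 4.76) at 0.489 and 1.37 CPM. The summed blood endothelial markers in fibroblast-like cells were 35.3 CPM in ApcMin and 107 CPM in VApcMinL, and their part in the Sema3g value was not tested. Cluster 0 held the most fibroblast-like cells in ApcMin (1313, against 884 in VApcMinL) and cluster 1 in VApcMinL (1326, against 570 in ApcMin). With the 5 clusters weighted equally, the ratio was 0.668 for Sema3e, 1.55 for Unc5c and 3.34 for Sema3g. Robo2, at 1.63 (1.56 to 1.70) over the class, came to 1.1 with equal weights, a mean that rests mostly on clusters 12 and 1, where it was highest. The ratio of Robo2 was 1.06 (0.997 to 1.13) within cluster 1 and 0.992 (0.876 to 1.12) within cluster 12. It was 2.07 within cluster 0, and the Robo2 levels given above for clusters 2 and 5 were also higher in VApcMinL. Slit3 was at 1.07 (1.05 to 1.1) and Slit2 at 0.997 over the class.

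Within single fibroblast-like clusters, 3 of 29 members were apart in cluster 0 (4.28% of all genes). Sema3e was lower, at 0.358 times (0.241 to 0.518), Plxna3 was lower, at 0.455 times (0.314 to 0.647), and Robo2 was higher, at 2.07 times (1.67 to 2.56). Sema3c, at 0.552 times (0.522 to 0.584) in the same cluster, missed the fold. In cluster 1 the count was 3 of 28 (3.91% of all genes), with Plxna3 at 0.497 (0.308 to 0.797), Sema3d at 0.498 (0.365 to 0.679) and Sema4a at 2.52 (1.37 to 5.02). In cluster 2 it was 1 of 25 (3.14% of all genes) and in cluster 5 it was 1 of 26 (2.21% of all genes), in each case Sema4a, at 3.02 (1.9 to 4.9) and 2.65 (1.5 to 4.91). Cluster 12 had 0 of 15 (5.03% of all genes). Sema4a is an epithelial-like gene here, and its level in empty droplets was 3.04 CPM in ApcMin and 18.2 CPM in VApcMinL. The 10 epithelial markers, none at 0, summed to 23.6 CPM in fibroblast-like cells of ApcMin and 273 CPM in those of VApcMinL, and in blood endothelial-like cells to 23.6 and 494 CPM (5 and 0 of them at 0). Their part in the Sema4a ratios was not tested.

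The fibroblast markers themselves differed between the libraries in the other stromal classes, all 11 being above 0. They summed to 6756 CPM in ApcMin and 2215 CPM in VApcMinL in blood endothelial-like cells and to 10740 and 3092 CPM in glial-like cells. Slit3 moved with them, at 0.525 times (0.396 to 0.699) the ApcMin level in blood endothelial-like cells, and at 94.7 and 17.5 CPM on 24 and 22 UMIs in glial-like cells. All of its UMIs in glial-like cells of ApcMin came from 7 of the 38 cells. The part of fibroblast RNA in these values was not tested.

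**Figure D4:**
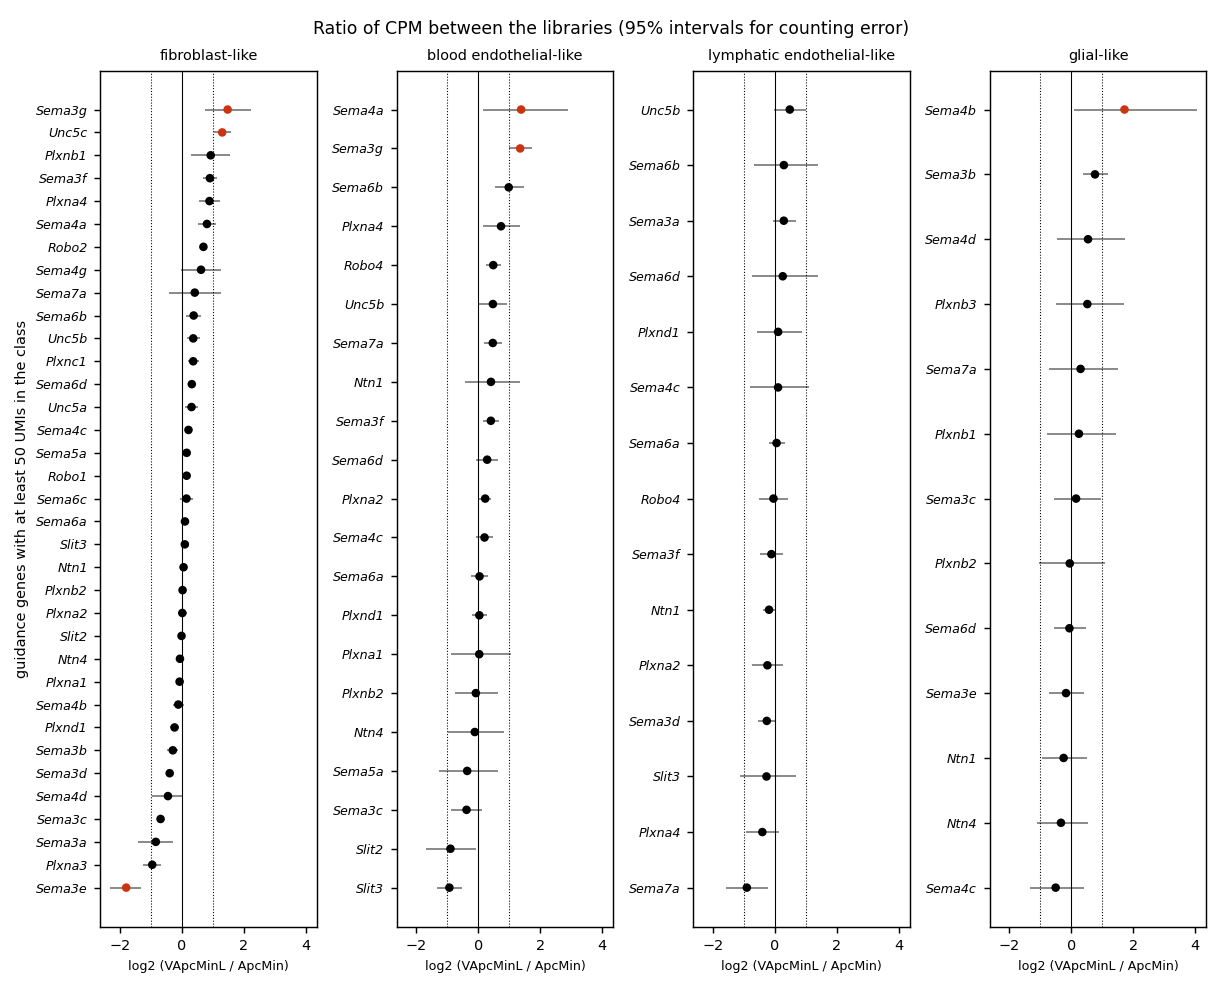
Log2 ratio of CPM in VApcMinL over ApcMin (horizontal axes) for guidance genes that reached 50 UMIs, shown for fibroblast-like, blood endothelial-like, lymphatic endothelial-like and glial-like cells. Points are ratios, bars are 95% intervals for counting error, dotted lines mark 2-fold and red points mark members at least 2-fold apart with an interval off 0. Red points number 3, 2, 0 and 1 in the 4 classes.

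The partners of the members were read from 4 further lists. Of 11 semaphorin and VEGF co-receptors, 10 had at least 100 UMIs. Nrp1 was highest in blood endothelial-like cells (1112 and 923 CPM) and Nrp2 in lymphatic endothelial-like cells (931 and 618 CPM), the classes of Plxna2 and of Sema3a, Sema3d and Sema3f. Kdr, the VEGF receptor, had 1508 and 1358 CPM in blood endothelial-like cells. Of 13 other netrin and repulsive guidance genes, 9 had enough UMIs, 5 of them highest in glial-like cells, against 7.81% of all genes. The netrin receptor Neo1 had 42.5 and 39.5 CPM in fibroblast-like cells and 41.1 and 39.4 CPM in cluster 11. The intervals of these classes overlapped in both libraries. Dcc had 1 UMI in all cells compared. Flrt3 had 138 and 146 CPM and Rgmb 130.2 and 104 CPM in glial-like cells. Among 8 Slit and netrin binding matrix or membrane proteins, Hspg2 (perlecan) was highest in blood endothelial-like cells (471 and 441 CPM) and Dag1 (dystroglycan) in glial-like cells (379 and 347 CPM).

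Of 27 intracellular effectors, 25 had at least 100 UMIs, with 5 highest in glial-like, 5 in lymphatic endothelial-like and 4 in blood endothelial-like cells (7.81%, 8.38% and 5.71% of all genes), while 7 had a different highest class in each library. Between the libraries, Rnd1, an intracellular partner of plexins, was apart in both endothelial classes. It was 1 of 19 measured effectors in blood endothelial-like cells, against 5.6% of all genes. In lymphatic endothelial-like cells it was 1 of 15, against 5.82% of all genes, so these counts lie near the share of all genes. It had 241 and 552 CPM in blood endothelial-like cells, a ratio of 2.29 (2.02 to 2.61), and 45.1 and 91.1 CPM in lymphatic endothelial-like cells, a ratio of 2.02 (1.22 to 3.57). No other effector with enough UMIs was apart in the 4 stromal classes. In blood endothelial-like cells Ptprj was higher at 3.88 times (1.81 to 9.93) and Sdc1 at 4.63 times (1.49 to 23.3) on 3 and 47 UMIs. Each was 1 of 7 measured genes of its list, against 5.6% of all genes. Ptprj was highest in myeloid-like cells (132 and 128 CPM), overlapping with glial-like cells. Sdc1 was highest in plasma cell-like cells (147 and 158 CPM), with epithelial-like cells next in ApcMin (123 CPM). The part of RNA from these classes was not tested. Flrt2, a gene highest in fibroblast-like cells, was lower in blood endothelial-like cells at 0.286 times (0.169 to 0.485), 1 of 3 measured in its list. In fibroblast-like cells Ntng1 was higher at 4.09 times (2.88 to 5.94), 1 of 9 measured, against 6.94% of all genes. Ntng1 was highest in glial-like cells (221 and 286 CPM) and at or under 3.82 CPM in fibroblast-like cells of VApcMinL. The part of glial RNA in its fibroblast-like ratio was not tested.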

How the data were processed

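The files were the gene-by-barcode matrices of the Chromium single-cell 3′ assay (reagent kit v3), and the authors deposited raw UMI counts per gene and barcode for every barcode, without a cell filter. Per the labels, Cell Ranger 2.1.1 and Seurat 3.1.1 were used with mm10 (GRCm38). Reads without a cell were not recovered here, and no cell annotation was used.

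Cells were barcodes with at least 1000 UMIs and at most 20% mitochondrial UMIs (7593 and 8597, after 251 and 996 were left out for mitochondrial UMIs). Seurat 5.3.0 (R 4.3.3) integrated the libraries and clustered them at resolution 0.2, with the 43 members left out of the variable genes so that no member shaped a cluster. A cluster took the name of the marker list detected most above the other clusters (lead at least 0.05, at least 3 markers). This naming rule and the minimum of 30 cells per library were set after the clusters had been seen. The members and the lists were chosen with earlier results of these data known.

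Counts were summed per class and library and given as CPM. Ratios and intervals were computed with scipy 1.17.1 and were checked on simulated counts. Members with at least 100 UMIs over the compared classes were described, and ratios were named where a gene had at least 50 UMIs, was at least 2-fold apart and had an interval off 1, beside members of the same class that were not. Doublets were not left out. Scrublet called 0 and 2 cells at its own threshold, which is too few to be of use, and leaving out the 461 and 591 highest scores was an alternative. RNA of empty droplets (barcode ranks 45000 to 90000) made up an estimated 1.11% to 11.4% of a class's UMIs, with 11.4% and 6.13% in myeloid-like cells and at most 4.64% in the fibroblast-like, endothelial and glial-like classes. Depth differed between classes, with medians of 13146 and 9928 UMIs in fibroblast-like cells and 5779 and 4730 in glial-like cells, so absence at a few UMIs says little for the small classes. Gene coordinates are from GENCODE vM21 (43 of 43 matched), and promoters from RefSeq. The other alternatives were a minimum of 5000 UMIs, at most 10% mitochondrial UMIs, cells trimmed by detected genes, resolution 0.8, cells classed by their own markers, empty-droplet RNA subtracted, no integration, a minimum of 200 UMIs per ratio, and cells thinned to 1000 UMIs. Equal weights for the fibroblast-like clusters were added after seeing the data.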

Additional observations from a re-analysis of the deposited data

Results flagged for a closer look

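Robo1 was past 2-fold in opposite directions in 2 classes. It was higher in VApcMinL in cluster 11, the cluster with smooth muscle, pericyte and fibroblast genes, at 2.48 times (1.28 to 5.36) on 10 and 80 UMIs. In epithelial-like cells Robo1 was lower, at 0.436 times (0.306 to 0.629) on 47 and 104 UMIs. The difference between the 2 ratios was not tested. Cluster 11 may hold a different mix of cells in each library. Its pericyte markers summed to 3648 CPM in ApcMin and 2051 CPM in VApcMinL, and its fibroblast markers to 25440 and 32220 CPM. The part of that mix was not tested.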

How the results depend on the processing

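No paired analysis was possible because there is 1 library of each genotype. The numbers of members highest in either endothelial class stayed within 1.5 times their counts under every alternative run. The count in glial-like cells came to 0 with at least 5000 UMIs per barcode and 0 with cells classed by their own markers, where 23 and 21 ApcMin cells fell under the minimum of 30, and to 2 after thinning. The count in fibroblast-like cells came to 2 at resolution 0.8 and 12 with cells classed by their own markers; the cause was not tested. Of members past 2-fold in fibroblast-like cells, there were 5 at 10% mitochondrial UMIs, 5 without the highest Scrublet scores, 6 by own markers and 1 after thinning. In blood endothelial-like cells there was 1 without the highest Scrublet scores, 1 at 200 UMIs and 1 after thinning. In glial-like cells there were 0 at 10% mitochondrial UMIs, 2 at resolution 0.8, 0 by own markers and 0 at 200 UMIs, and in lymphatic endothelial-like cells 1 by own markers. Of 109 recomputed single ratios of 14 gene and class pairs, 103 stayed within the original interval, 6 moved outside it and 0 changed direction. The minimum of 200 UMIs cannot change a ratio, and some intervals were wide. Ratios fell under 2-fold in some alternatives for Plxna3 (clusters 0 and 1, in 3 of 6 for cluster 1) and Sema3d (cluster 1). The same held for Sema3e (fibroblast-like class and cluster 0), Unc5c (fibroblast-like), Sema4a (blood endothelial-like) and Sema4b (glial-like). Sema3g in blood endothelial-like cells ran from 1.06 to 1.61 on the log2 scale, against 1.35. The glial-like and lymphatic endothelial-like classes rest on 38 and 40 cells in ApcMin, which limits their values.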

Other observations

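Mesothelial-like cells (led by Slpi, Msln and Upk3b) were too few to compare, with 7 cells in ApcMin and 34 in VApcMinL, yet they held high levels of several members. Sema3c had 641 and 351 CPM, Sema5a 490 and 426 CPM, Plxna4 253 and 182 CPM, and Sema3d 224 and 105 CPM. For Sema3c, Sema5a and Plxna4 these values were above those of every compared class in the same library.

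In the sorted-out classes that remained, 5 of 20 members were lower in epithelial-like cells of VApcMinL (Plxnb1, Robo1, Sema3c, Sema3f and Sema4d), in a class where 17.7% of all genes tested were lower. In myeloid-like cells Plxnd1 was at 0.276 times (0.198 to 0.379) and Sema3c at 0.231 times (0.0878 to 0.517) the ApcMin level, the 2 of 15 measured members that were lower, where 3.52% of all genes were lower. The 6 mast cell markers in this class summed to 14490 CPM in ApcMin and 38.0 CPM in VApcMinL, and their part in the Plxnd1 and Sema3c values was not tested. In cluster 11, 20 members were measured, of which Robo2, Unc5b, Robo1 and Sema3a were higher and Sema6a lower, where 3.81% of all 6983 genes were higher and 3.65% lower. Slit3 in T cell or ILC-like cells was 3.79 times higher (2.20 to 6.85), 1 of 3 measured members, where 5.02% of all genes were higher. The 11 fibroblast markers in that class summed to 1802 CPM in ApcMin and 5421 CPM in VApcMinL, none at 0, and their part in the Slit3 value was not tested.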
